A study of Mus musculus with 6 samples.

Results

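The 37 genes described here are autosomal mouse genes known to be imprinted, that is, expressed from 1 parental allele in at least some tissues. Whether they were so expressed in these cells was not measured here. They make up 37 of the 55413 GENCODE vM21 genes on chromosomes 1 to 19, X and Y. They were chosen by name and not by a value of these data, although earlier results of these data were known. Of the 37, 30 code for protein and 7 are non-coding RNAs. Their binding by DPPA4 was read from 2 deposited peak lists, 1 for mouse embryonic stem cells (mESCs) and 1 for 2-cell-like cells (2CLCs). All samples came from the EHMT2-dTAG-mcherry-mervl-gfp line, a BL6/129 hybrid ESC line. In this line the histone methyltransferase EHMT2 can be degraded by a small molecule, and a promoter of the endogenous retrovirus MERVL drives GFP. Every sample was treated with dTAG for 72 h, so both cell states were depleted of EHMT2 and no untreated sample was analysed here. Live cells were sorted into GFP-negative cells (mESCs) and GFP-positive cells (2CLCs), and the sorted state rests on this reporter, since peak lists hold no expression with which to check it. CUT&RUN, in which an antibody directs a nuclease to its target on chromatin, was done for DPPA4 on 2 libraries per state and for IgG on 1 GFP-negative library and 1 bulk library.

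Imprinted genes carry a parental mark set in the germ line. At most clusters this mark is a differentially methylated region (DMR), a CpG-rich stretch that is methylated on the allele from 1 parent and often is the promoter of a paternally expressed transcript or of a long non-coding RNA that silences its neighbours. The methylated allele is held by the zinc finger protein ZFP57, which reads the methylated hexamer TGCCGC and brings in TRIM28 and the DNA methylation machinery. DPPA4 is a small DNA-binding protein of pluripotent cells and early embryos that works with DPPA2 and is known for CpG-rich promoters. The peak lists do not separate the parental alleles, so a peak at a DMR says only that at least 1 allele was bound.

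Each list pooled the 2 libraries of its state, so there was no replicate error and no test between states was possible. All comparisons below are descriptions of the 2 lists. The lists held 83602 peaks for mESCs and 54642 for 2CLCs on the mouse chromosomes, and the mESC list was 1.53 times as long. The study's methods state the same nominal sequencing depth for every CUT&RUN library, and the reads kept after filtering were not analysed here. Peak strength is given as the −log10 q of the peak summit as the authors' peak caller wrote it, with a lowest value of 1.3, and as a percentile among the protein-coding genes with a promoter peak in the same list. A promoter ran from 2.5 kb before to 0.5 kb after any transcript start, and a gene counted as bound with an overlap of at least 1 bp.

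The sequences under a few of the summits show how different the bound sites were, and 2 further stretches stand for a start bound in only 1 state and for a start with no peak. Peak sequences are the 101 bases around the summit and the other stretches are the 100 bases before a start, all taken from the RefSeq copy of GRCm38.p6, which is the same sequence as mm10. Capitals mark TGCCGC or its reverse complement GCGGCA.
Inpp5f first start, mESC summit, plus strand (chr7:128611221-128611321): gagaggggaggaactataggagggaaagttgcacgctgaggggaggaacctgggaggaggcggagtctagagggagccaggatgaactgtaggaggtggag
Mcts2 start, 2CLC summit, plus strand (chr2:152686873-152686973): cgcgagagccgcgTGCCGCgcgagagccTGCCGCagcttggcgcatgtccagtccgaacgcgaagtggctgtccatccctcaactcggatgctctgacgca
Slc38a4 start, mESC summit, plus strand (chr15:97056001-97056101): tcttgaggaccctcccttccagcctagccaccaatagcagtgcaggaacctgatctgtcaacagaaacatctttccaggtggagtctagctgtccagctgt
Inpp5f internal start, 2CLC summit, plus strand (chr7:128688391-128688491): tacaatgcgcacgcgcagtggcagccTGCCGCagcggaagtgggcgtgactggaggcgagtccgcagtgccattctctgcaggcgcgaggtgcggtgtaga
Trappc9 intron at Peg13, mESC summit, plus strand (chr15:72809976-72810076): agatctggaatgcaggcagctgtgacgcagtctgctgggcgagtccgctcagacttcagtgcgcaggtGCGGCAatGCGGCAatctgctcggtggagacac
Mest, 100 bases before the second promoter, plus strand (chr6:30737950-30738049): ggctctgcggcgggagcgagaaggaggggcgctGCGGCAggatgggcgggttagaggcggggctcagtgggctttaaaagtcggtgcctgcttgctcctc
Nap1l5, 100 bases before the start, minus strand (chr6:58907127-58907226): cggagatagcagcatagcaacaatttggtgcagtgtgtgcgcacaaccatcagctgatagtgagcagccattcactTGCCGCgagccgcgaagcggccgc

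The sequences under the strongest mESC peaks of Inpp5f and Slc38a4 held 2 and 0 CpG dinucleotides and no TGCCGC. The others were richer in CpG: the Mcts2 sequence held 14, the internal start of Inpp5f 11, Mest and Nap1l5 8 each and the Trappc9 intron 7. Over the 301 bases around the summit, TGCCGC on either strand was found in 18 of the 106 distinct mESC peaks at imprinted genes (17.0%) and in 21 of the 60 distinct 2CLC peaks (35.0%). Among all peaks of the lists the shares were 10.2% in mESCs and 11.2% in 2CLCs. For promoter peaks of imprinted genes alone they were 16.4% and 35.7%, beside 17.8% and 19.1% for all promoter peaks of protein-coding genes. Among windows of that length around all transcript starts the share was 13.17%. At promoter peaks of genes with a germline DMR at the promoter, 5 of 22 mESC peaks and 9 of 18 2CLC peaks held the hexamer. A match is a description of the letters and not of ZFP57 binding, which was not measured here. The sequence around the summit had a copy number of 1 in the genome at 164 of the 166 distinct peaks, counting both lists. The exceptions were 2CLC peaks in introns of Airn and H13.

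DPPA4 was found at the promoter of most imprinted genes in both states. In mESCs 32 of 37 genes (86.5%) had a promoter peak, beside 70.0% of the 21938 protein-coding genes, and in 2CLCs 29 of 37 (78.4%) had one, beside 61.9%. With the gene body included, 34 genes were bound in mESCs, beside 75.5% of protein-coding genes, and 31 were bound in 2CLCs, beside 69.2%. All 29 genes bound at the promoter in 2CLCs were also bound in mESCs (59.9% of protein-coding genes were bound in both). Snrpn, Grb10 and Zdbf2 had a promoter peak in mESCs only, a class that held 10.1% of protein-coding genes, and no imprinted gene had one in 2CLCs only, a class of 1.99%. The promoters of H19, Rian, Mirg, Nap1l5 and Ndn had no peak in either state (28.0% of protein-coding genes). The calls at Snrpn and Grb10 rest on weak peaks: with the 50000 strongest peaks of each list both genes had no promoter peak in either state and only Zdbf2 was left as bound in mESCs only. With the transcripts of the GENCODE basic set alone, Grb10 had no promoter peak in either state.

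Much of this excess over protein-coding genes went together with promoter type. A promoter was called CpG-rich if the 500 bp on either side of any start had a GC share of at least 0.5 and an observed-to-expected CpG ratio of at least 0.6, which held for 51.2% of protein-coding genes and for 25 of the 37 imprinted genes. Of the 24 protein-coding imprinted genes in this class, 23 (95.8%) were bound in mESCs and 21 (87.5%) in 2CLCs. The shares among all 11236 protein-coding genes of the class were 98.0% and 92.0%, so within it the imprinted genes were not more often bound. The 6 protein-coding imprinted genes outside the class were Snrpn, Zim1, Ndn, Magel2, Trappc9 and Slc38a4. Of these, 5 were bound in mESCs and 4 in 2CLCs, beside 40.6% and 30.3% of all protein-coding genes outside the class. Ndn, which had no promoter peak, had a CpG ratio of 0.17. The others lay close to the limit of 0.6, from 0.527 (Trappc9) to 0.57 (Snrpn), and the comparison was not matched for this ratio. Among the 7 non-coding RNAs, Kcnq1ot1, Meg3, Airn and Nespas were bound in both states, beside 36.3% and 27.0% of 10155 long non-coding RNA genes. Nespas has a CpG-rich promoter by the same rule (ratio 0.714), and the long non-coding RNA genes were not split by promoter type. Imprinted genes also had more transcript starts (median 5, beside 3 for protein-coding genes) and were longer (median 26540 bp, beside 17425 bp). By gene length, 51.5% of the 7313 shortest protein-coding genes had a promoter peak in mESCs and 46.4% in 2CLCs, and of the 9 imprinted genes among them 7 did in either state. The shares were 75.0% and 66.4% of the 7312 genes of middle length, where all 7 imprinted genes were bound in both states. Of the 7313 longest protein-coding genes 83.5% and 72.9% had a promoter peak, and of the 14 imprinted genes among them 14 and 11 did.

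**Figure D1:**
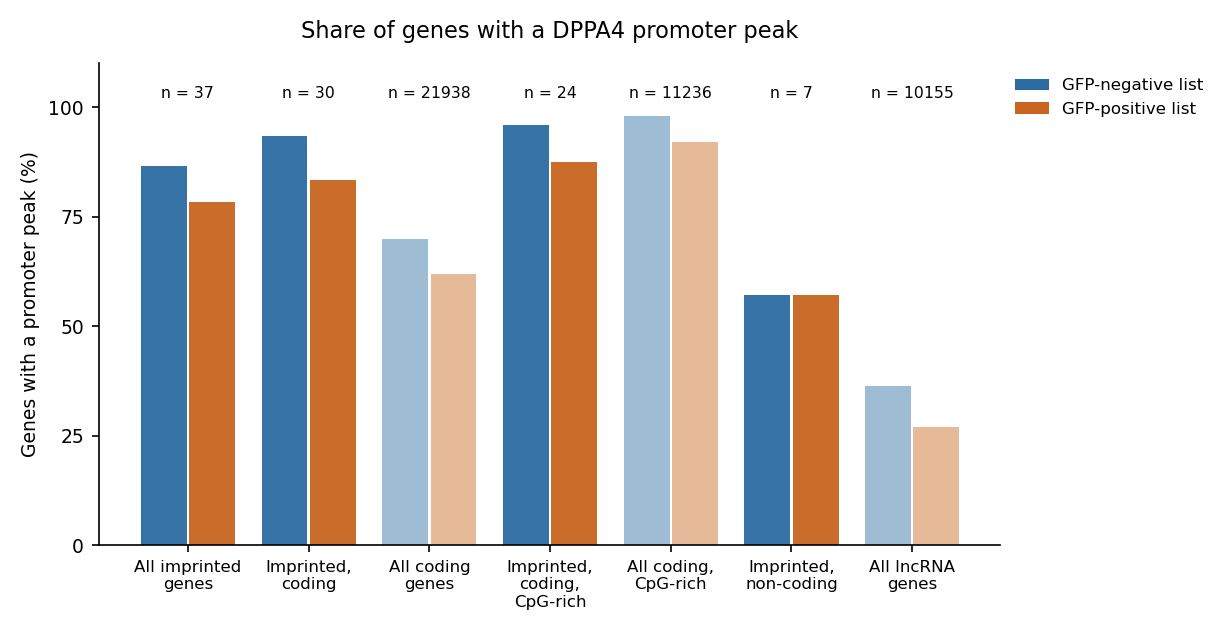
Bars give the share of genes with a DPPA4 promoter peak, in percent, in the mESC list (GFP-negative, blue) and the 2CLC list (GFP-positive, orange), with the number of genes above; each bar comes from 1 pooled list and has no error. Imprinted genes (dark) stood above all protein-coding genes at 86.5% against 70.0% in mESCs, but among CpG-rich protein-coding promoters they stood at 95.8% against 98.0%.

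The strength of the bound promoters covered a wide range. The median −log10 q of the strongest promoter peak was 10.6 in mESCs (32 genes, range 1.45 to 80.3), beside 15.7 for protein-coding genes, and 9.12 in 2CLCs (29 genes, range 1.64 to 30.2), beside 9.64. Among CpG-rich protein-coding promoters alone, the imprinted genes had a median of 11.2 in mESCs, beside 19.2 for the whole class, and 12.4 in 2CLCs, beside 11.3. In mESCs 9 of the 32 bound genes lay above the median of the bound protein-coding genes, and in 2CLCs 12 of 29 did. Limited to peaks with a −log10 q of at least 10, promoters of 16 imprinted genes were bound in mESCs (43.2%, beside 45.6% of protein-coding genes) and of 12 in 2CLCs (32.4%, beside 30.1%). The top 10% of bound protein-coding genes in mESCs took in 3 of the 32, namely Inpp5f, Mcts2 and Trappc9, and that in 2CLCs took in 1 of the 29, Peg3. The plot of peak strength by gene shows the whole range.

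**Figure D2:**
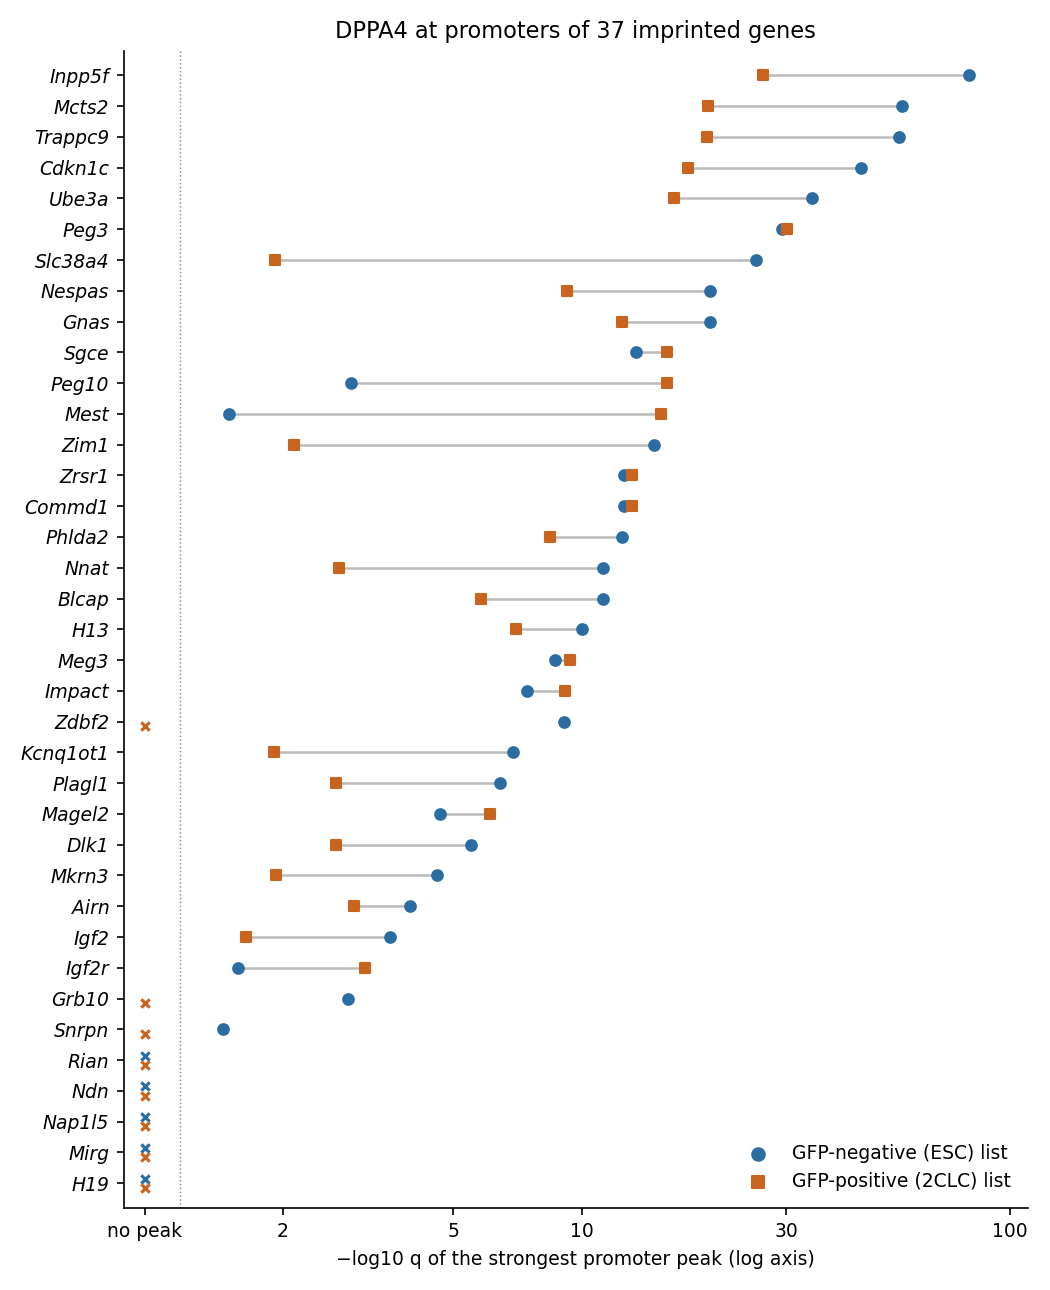
Each row is 1 imprinted gene and the log axis gives the −log10 q of its strongest promoter peak in the mESC list (circles) and the 2CLC list (squares), with crosses at the left for no peak; values of the 2 lists are not on a common depth. Inpp5f led the mESC list at 80.3, and 5 genes at the bottom had no promoter peak in either list. Mest and Peg10 had weak mESC promoter peaks beside 2CLC values of 15.3 and 15.8. For Peg10 an mESC peak of 13.4 in the same stretch lay outside the promoter window.

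The 3 strongest promoters in mESCs belonged to host genes or to a gene nested in one. Inpp5f, which encodes a phosphoinositide phosphatase, had the highest value of all in mESCs at its first start, 80.3 (percentile 96.2), and 26.5 in 2CLCs (percentile 87.9). This start drives the transcript expressed from both alleles, while the imprinted transcript begins inside the gene. At that internal start the summits lay at −21 bp in mESCs and −48 bp in 2CLCs, and the peaks were weak, at 4.57 and 4.30. Mcts2, a retrogene in an intron of H13 that encodes a translation factor, showed the reverse arrangement. Its start had 55.9 in mESCs and 19.7 in 2CLCs, whereas the promoter of its host H13, which encodes a signal peptide peptidase, had 9.98 and 7.02. Trappc9, a gene for a vesicle trafficking subunit, had 55.1 and 19.6 at its promoter. A separate peak of 12.7 in mESCs and 13.4 in 2CLCs lay in a Trappc9 intron over Peg13, a non-coding RNA whose promoter is the germline DMR of this cluster. Thus at Inpp5f and Trappc9 the start of the host was the stronger site and at H13 the nested start was. The peak at the intronic DMR was present in both states in all 3 loci.

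At Commd1 and Blcap the host and nested genes shared peaks. Zrsr1, a retrogene for a splicing factor, lies in an intron of Commd1, a gene for a copper and endosome protein, and both had 12.5 in mESCs and 13.1 in 2CLCs from 1 peak at the Zrsr1 start. Here the 2CLC value stood higher in its list (percentile 62.4, beside 42.0 in mESCs), and the own start of Commd1 had 3.55 and 5.15. Nnat, which encodes a small membrane proteolipid of neurons and endocrine cells, lies in Blcap, and its strongest promoter peak had 11.2 in mESCs (percentile 38.4) and 2.71 in 2CLCs (percentile 13.2). Blcap had 11.2 and 5.81, where the mESC value was the Nnat peak and the 2CLC value came from its own start, at which mESCs had 7.46.

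The growth-restraining genes of the Kcnq1ot1 cluster were bound in both states. Cdkn1c, which encodes a cyclin-dependent kinase inhibitor, had 44.9 in mESCs (percentile 84.9) and 17.7 in 2CLCs (percentile 74.7), in peaks whose summits were at −97 and −87 bp from its start. Phlda2, which restrains placental growth, had 12.4 and 8.40. Kcnq1ot1, the long non-coding RNA that silences both on the paternal allele and starts at the germline DMR, had 6.90 in mESCs (percentile 24.3) and 1.91 in 2CLCs (percentile 4.81). All 6 bound regions at these 3 genes lay at promoters and were common to both states, against 59.5% of the 25398 promoter regions of protein-coding genes. In the neighbouring H19-Igf2 cluster binding was weak or not found. The promoters of Igf2, a fetal growth factor, had 3.55 in mESCs and 1.64 in 2CLCs. H19, the non-coding RNA that shares its enhancers, had no peak, and the nearest one lay 29702 bp away in mESCs and 30097 bp away in 2CLCs.

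In the Prader-Willi and Angelman cluster binding differed widely from gene to gene. Ube3a, the ubiquitin ligase gene of Angelman syndrome, had a strong peak with its summit at −84 bp in mESCs (34.4, percentile 77.2) and a peak of 16.4 in 2CLCs (percentile 71.6). Magel2, a ubiquitin ligase adaptor, had 4.65 and 6.10, and Mkrn3, a ring finger gene, had 4.57 and 1.93. Snrpn, a splicing protein gene whose promoter is the imprinting centre of the cluster, was bound in mESCs only. Its promoter peak of 1.45 was only just above the limit of the list, and its strongest peak inside the gene had 3.95. The nearest 2CLC peak lay 12709 bp from Snrpn. Ndn, a gene of the MAGE family, had no promoter peak, a peak of 6.44 in its exon in mESCs, and none in 2CLCs, where the nearest lay 8110 bp away. The span from Ube3a to Mkrn3 covers 3200 kb, much of it poor in genes, and held 7.51 peaks per Mb in mESCs and 6.26 in 2CLCs. Over the whole chromosomes the densities were 30.7 and 20.0.

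In the Dlk1-Meg3 cluster Dlk1 and Meg3 had promoter peaks and the more distal Rian and Mirg had none. Dlk1, which encodes a membrane ligand related to those of Notch, had 5.49 in mESCs and 2.66 in 2CLCs. Meg3, the first of the maternally expressed non-coding RNAs, had 8.66 in mESCs (percentile 30.6) and 9.35 in 2CLCs (percentile 49.4), with summits 852 and 816 bp after a start. Rian, which hosts small nucleolar RNAs, had 1 peak in an intron in both states, at 6.56 and 2.81, and none at its promoters. Mirg, which hosts microRNAs, had no peak. The nearest mESC peak was 275 bp from it and the nearest 2CLC peak 40622 bp away.

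Nap1l5, a nucleosome assembly gene inside Herc3 whose promoter is a germline DMR, was the only CpG-rich imprinted gene with no promoter peak in either state, a class that held 1.34% of CpG-rich protein-coding genes. Its promoter had an observed-to-expected CpG ratio of 0.816, and the 100 bases before its start, printed above, held 8 CpG and 1 copy of TGCCGC. The nearest peak lay 73017 bp away in mESCs and 72874 bp away in 2CLCs. Herc3 itself, a gene for a ubiquitin ligase that is not among the 37, had a promoter peak of 16.6 in mESCs and 12.4 in 2CLCs.

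Slc38a4 had the most regions found in mESCs only of the 37 genes (7), followed by Trappc9 (5), and Zdbf2 and Grb10 had no promoter peak in 2CLCs. Slc38a4, an amino acid transporter gene, had 25.5 at its start in mESCs (percentile 66.9). In 2CLCs this peak was missing and a peak of 1.92 was left in the window, with its summit at −1583 bp from another start (percentile 5.04). With promoters of 1 kb to either side of a start, or with basic transcripts, Slc38a4 was bound in mESCs only. Of the 10 regions bound at Slc38a4, 7 were found in mESCs only, 2 in 2CLCs only and 1 in both, beside 46.0%, 15.3% and 38.7% of the regions at protein-coding genes. The shared region, in an intron, had 8.37 in mESCs and 9.33 in 2CLCs. Zdbf2, a zinc finger gene, had 9.09 in mESCs and no 2CLC peak at its promoter, while a region in an exon far into the gene was bound in both states, at 2.84 in mESCs and 4.56 in 2CLCs. Grb10, an adaptor that restrains insulin and growth factor signalling, had 4 mESC peaks, from 2.84 at an internal start to 6.68 in the gene body. It had none in 2CLCs, where the nearest peak lay 87930 bp away. Zim1, a zinc finger gene beside Peg3, had a promoter peak in both states, with 14.7 (percentile 47.8) in mESCs and 2.12 in 2CLCs (percentile 8.10).

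**Figure D3:**
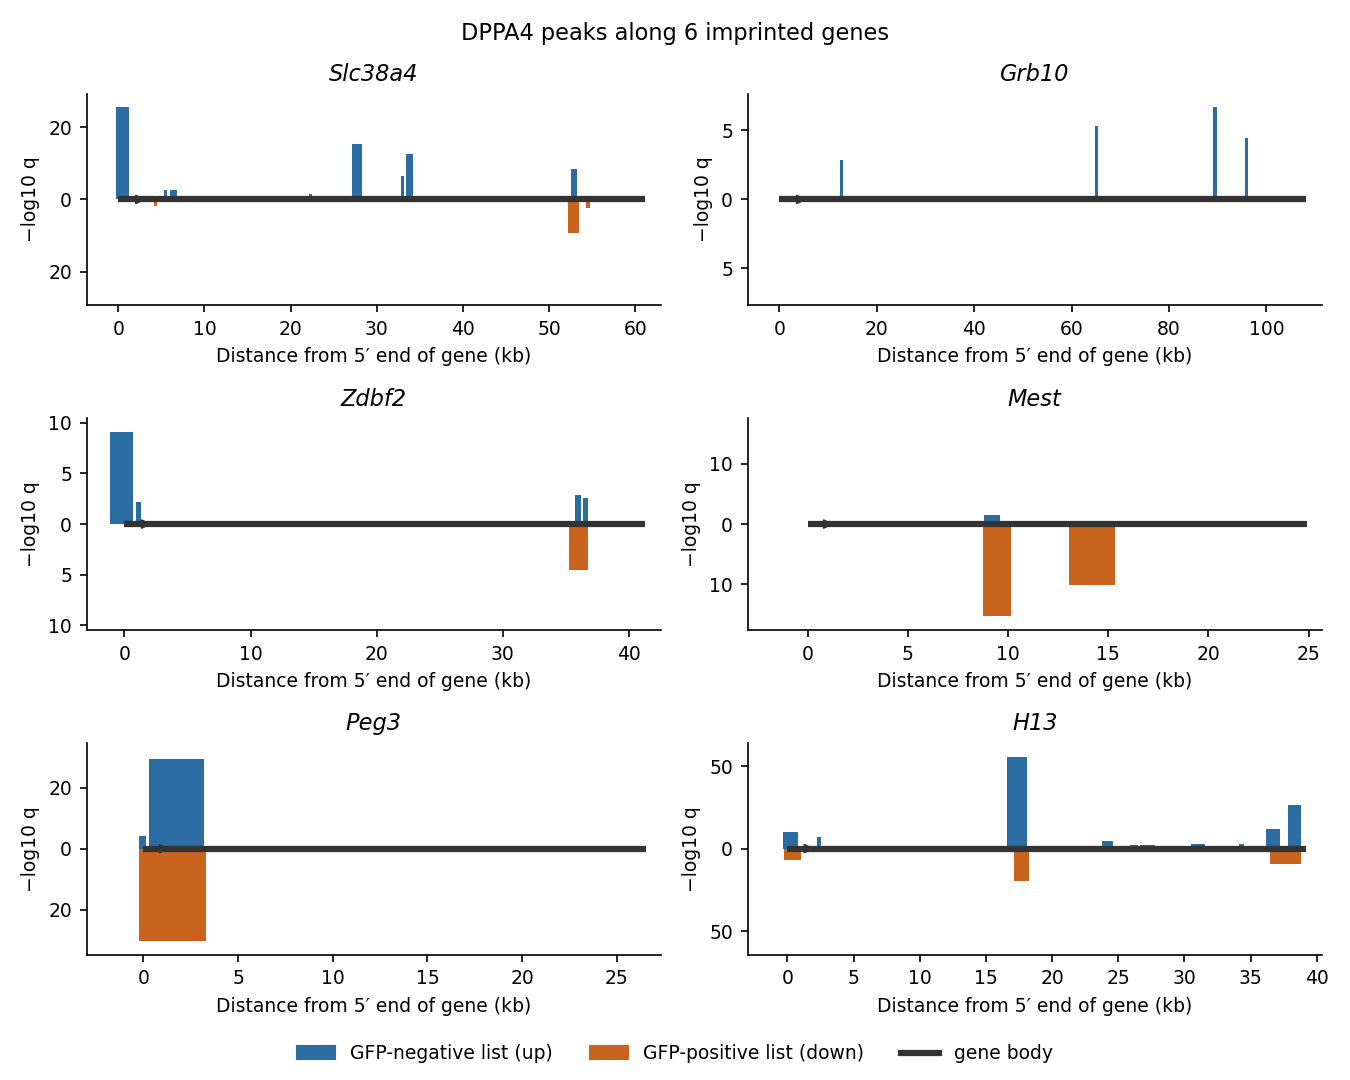
Each panel shows 1 gene (dark line, 5′ end at 0, distance in kb), with mESC peaks drawn upward and 2CLC peaks downward at their true width (very narrow ones widened to be visible) and with height equal to −log10 q. Grb10 and Zdbf2 had a promoter peak in mESCs and none in 2CLCs, and that of Grb10 was weak (2.84). At Slc38a4 the mESC peak of 25.5 at the start was missing in 2CLCs, where a weak promoter peak of 1.92 was left. Mest had its main peaks in 2CLCs (15.3 and 10.1) and Peg3 was alike in both (29.4 and 30.2). The strongest peak in H13 was at the start of the nested gene Mcts2.

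Among the genes whose promoter is a germline DMR, Mest and Zrsr1 each had a promoter region bound in 2CLCs only. Peg10, Sgce, Peg3, Impact, Gnas and Nespas were bound in both states. Mest, a gene for a hydrolase-like membrane protein, had a single mESC peak close to the limit of the list (1.5, percentile 0.892). In 2CLCs the same site had 15.3 (percentile 69.0). A second 2CLC peak of 10.1, with a fold enrichment of 7.68, covered the start preceded by the Mest sequence printed above, with its summit 165 bp after a start. This region had no mESC peak. Peg10, a gene derived from a retrotransposon, and Sgce, which encodes a sarcoglycan, diverge from 1 DMR. They shared a 2CLC peak of 15.8 (percentile 70.2). In mESCs the same stretch was covered by 2 separate peaks, 1 of 2.89 in the windows of both genes and 1 of 13.4 in that of Sgce only, so the percentile of 7.77 for Peg10 in mESCs rests on where its window ends. Peg3, a zinc finger gene, had 29.4 in mESCs (percentile 71.9) and 30.2 in 2CLCs (percentile 90.8), the highest 2CLC value of the set. The summits lay 1843 and 1780 bp into the gene. The 2CLC peak reached back over the start, while in mESCs the start was covered by a separate peak of 4.29. Impact, a translation regulator, had 7.43 and 9.12 near an internal start. Gnas, which encodes a G protein subunit from several starts, had 19.9 in mESCs at the shared start region with its antisense RNA Nespas and 12.4 in 2CLCs at a start further along, at percentiles 58.2 and 60.3. Nespas had 19.9 and 9.24.

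In 10 of the 29 genes bound in both states (34.5%) the strongest promoter peak had the higher −log10 q in 2CLCs, beside 12.6% of 13145 protein-coding genes. The 10 genes were Peg3, Mest, Peg10, Sgce, Zrsr1, Commd1, Meg3, Impact, Magel2 and Igf2r, of which Peg10 with Sgce and Zrsr1 with Commd1 share a peak. Igf2r, a receptor that clears IGF2, had only 1.57 and 3.11. On the within-list scale the imprinted genes did not shift as a group. The percentile was higher in 2CLCs for 14 genes and lower for 15, and was higher for 40.7% of protein-coding genes. It was at least 30 points higher in 2CLCs for Mest and Peg10, beside 3.38% of protein-coding genes, and at least 30 points lower for Slc38a4 and Zim1, beside 9.04%. The difference at Peg10 rests on where its promoter window ends, as given above.

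**Figure D4:**
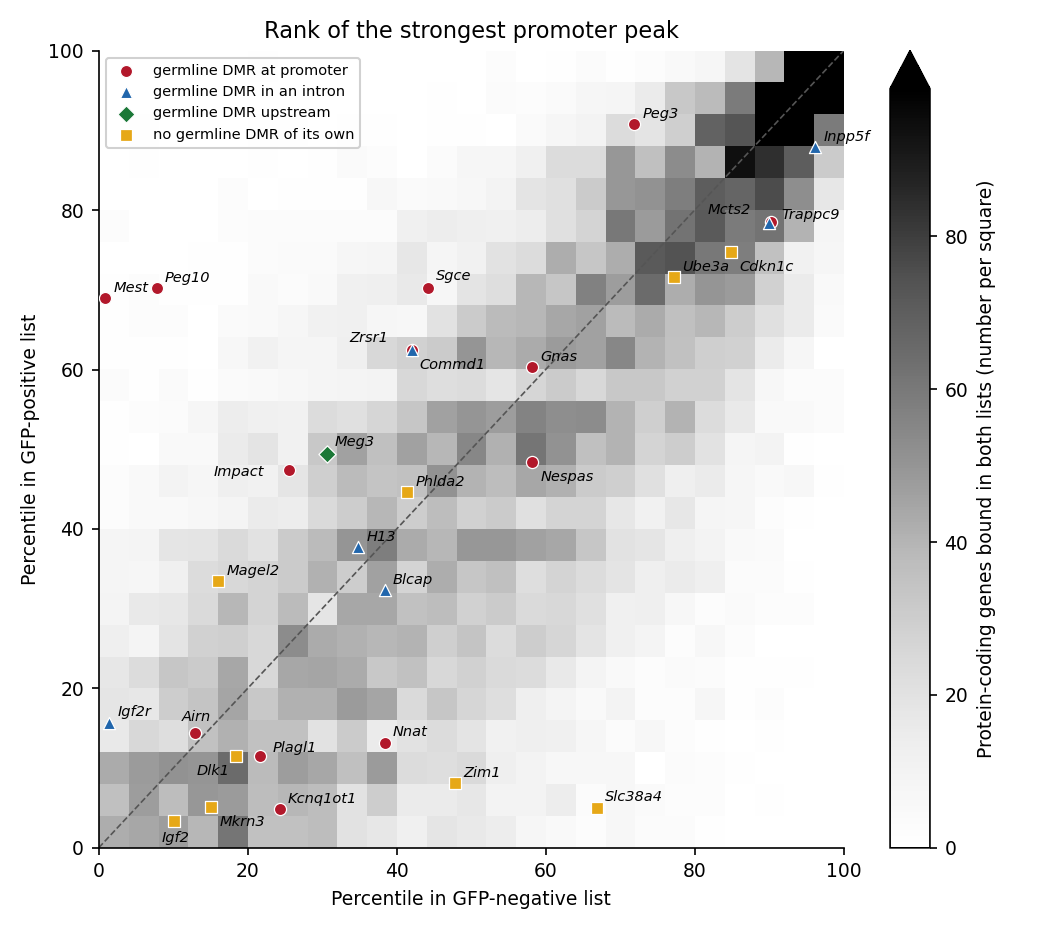
Points are the 29 imprinted genes bound at the promoter in both states, placed by the percentile of their strongest promoter peak among bound protein-coding genes in the mESC list (x axis) and the 2CLC list (y axis), over grey squares that count the 13145 protein-coding genes bound in both, with a dashed line at equal percentiles. Mest and Peg10 lay far above the line and Slc38a4 and Zim1 far below it. The place of Peg10 rests on where its promoter window ends.

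Grouped by where textbook knowledge places the germline DMR, the genes differed in the rank of their strongest promoter peak. That peak could lie at any start and was not always the peak at the DMR. At Inpp5f, Trappc9 and H13 it lay at the start of the host, away from the intronic DMR. Of the 16 genes with a germline DMR at the promoter, 15 were bound in mESCs and 13 in 2CLCs. The medians were 7.43 over the 15 genes and 12.4 over the 13, beside 15.7 and 9.64 for protein-coding genes. For the 13 bound in both, the percentile was higher in 2CLCs for 8 and lower for 5, with a median of 38.4 in mESCs and 60.3 in 2CLCs. The median of the differences within genes (2CLC minus mESC) was smaller, at 2.15 points, beside -3.01 points for protein-coding genes bound in both. Plagl1, a zinc finger gene with 6.44 and 2.66, Kcnq1ot1 and Nnat were among the 5. Of the 12 genes grouped here as having no germline DMR of their own, 9 were bound in both states. Their medians were 12.4 in mESCs and 2.66 in 2CLCs. The percentile was lower in 2CLCs for 7 of the 9, Slc38a4 among them, with a median difference of -6.91 points (2CLC minus mESC). It was also lower for 7790 of the 13145 protein-coding genes bound in both. The 6 host genes with the DMR in an intron were bound in both states and were split evenly, 3 higher and 3 lower. Airn, the antisense RNA that starts at the intronic DMR of Igf2r and silences it, had 3.97 and 2.93. The groups are small, their genes share peaks, and the difference between them was not tested. By the allele known to be expressed, which was not measured here, 20 of 22 paternally expressed genes were bound in mESCs and 18 in 2CLCs. Of 14 maternally expressed genes 11 and 10 were bound.

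Counting each peak once, the windows of the 37 genes held 106 mESC peaks and 60 2CLC peaks, a ratio of 1.77, beside 1.56 for all peaks at protein-coding genes. Merging overlapping peaks gave 105 regions, of which 49 (46.7%) were common, 47 (44.8%) were found in mESCs only and 9 (8.57%) in 2CLCs only. At protein-coding genes the shares were 38.7%, 46.0% and 15.3%. At the promoters of imprinted genes 37 of 56 regions (66.1%) were common and 3 were found in 2CLCs only, beside 59.5% and 9.96%. The share found in 1 state depends on the list lengths: with the 50000 strongest peaks of each list, 28 regions were found in mESCs only and 17 in 2CLCs only. With the 10000 strongest peaks, 7 imprinted genes were bound at the promoter in mESCs (28.1% of protein-coding genes) and 12 in 2CLCs (26.4%). Slc38a4 was then bound in mESCs only, and Mest, Peg10, Sgce, Gnas, Zrsr1 and Commd1 were bound in 2CLCs only.

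Binding was unevenly spread over the 20 clusters, of which 9 hold a single gene of the set. Peaks were densest at Blcap-Nnat, with 287 per Mb in mESCs and 172 in 2CLCs over 17.4 kb, and at H13-Mcts2, with 240 and 120. Gnas-Nespas had 107 and 76.3. Mest was the only cluster with more 2CLC than mESC peaks, 2 against 1, while Inpp5f and Igf2r-Airn had equal numbers and Nap1l5 had none in either state. All cluster spans together held 26.5 peaks per Mb in mESCs and 15.9 in 2CLCs, beside the 30.7 and 20.0 of whole chromosomes. The gene-poor span from Ube3a to Mkrn3 makes up 3200 of these 5360 kb, and the other 19 clusters alone held 54.7 and 30.1 peaks per Mb. Over the windows of the imprinted genes themselves the densities were 53.5 and 30.3, beside 49.1 and 31.4 over the windows of all protein-coding genes.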

How the data were processed

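CUT&RUN for DPPA4 was measured in 2 GFP-negative and 2 GFP-positive libraries, grouped by sample title. As the study's methods state, the authors trimmed reads with bbduk, aligned them to mm10 with STAR 2.7.10, placing each multimapping read at 1 best or random position, removed duplicates with Picard 2.26.0, dropped blacklisted high-signal regions and called peaks with MACS2 2.2.6. Each deposited list pools its replicates, and the 2 IgG libraries were not used here. The deposited fold enrichment is a ratio over the background that MACS2 estimated and the deposited −log10 q has a lowest value of 1.3 (a q-value of 0.05). Of 85177 and 54647 listed peaks, 1575 and 5 off chromosomes 1 to 19, X and Y were left out. The number of unused per-sample columns was 0.

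Overlaps were computed in Python 3.11.15 (numpy 2.4.6, pandas 2.3.3, numba 0.67.0) with GENCODE vM21 and drawn with matplotlib 3.10.9. The overlap code was tested on simulated peaks. Copy number is the median over the 31-base words in the 200 bp around the summit. Sequence came from RefSeq GRCm38.p6, and 30 of the 37 genes matched an entry of its promoter table that could be shown. The genes and lists were chosen with earlier results of these data known. Values were named for every gene bound at the promoter in 1 list, every gene with no peak, the 10 strongest of either list, host and nested pairs, and the H19-Igf2, Kcnq1ot1, Snrpn-Ube3a and Dlk1-Meg3 clusters, and other genes were added to complete the groups. Alternatives were other q limits, equal list lengths, promoter windows of 1 kb, basic transcripts, summits in place of overlap, and other backgrounds. The study's methods state the same nominal sequencing depth for every CUT&RUN library. The reads kept after filtering were not analysed here, so no counting error is given.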

Additional observations from a re-analysis of the deposited data

How the results depend on the processing

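No paired analysis was possible because both libraries of a state sit in 1 pooled list, which also means that no replicate could be left out. Of 106 alternative values, 54 stayed within 1.5 times the reported value and 52 moved beyond it. Narrower windows and basic transcripts moved none, although Slc38a4 was then bound in mESCs only, and with basic transcripts Grb10 and Impact had no promoter peak in either state. With a −log10 q of at least 5, promoters of 23 genes were bound in mESCs and of 19 in 2CLCs (20 with the gene body): 16 in both, 7 in mESCs only, 3 in 2CLCs only and 11 in neither. Distinct peaks were then 45 and 25, regions 20 common, 24 mESC-only and 5 2CLC-only, and cluster densities 11.2 and 6.91 peaks per Mb. With at least 10, promoters of 16 and 12 genes were bound (19 and 13 with the gene body): 10 in both, 6 and 2 in 1 state and 19 in neither, with 24 and 12 peaks, regions of 10, 14 and 2, and densities of 6.35 and 4.11. The mESC share of 43.2% was then below the 45.6% of protein-coding genes. With the 50000 strongest peaks of each list there were 70 mESC peaks, 1 gene bound in mESCs only (Zdbf2) and 2 in 2CLCs only (Mest and Igf2r), and 28 and 17 regions found in 1 state. With the 10000 strongest, 7 and 12 promoters (8 and 13 with the gene body) were bound: 6 in both, 1 and 6 in 1 state and 24 in neither, with 8 and 11 peaks, regions of 6, 2 and 5, and densities of 2.43 and 3.92. With summits in place of overlap, 5 genes were bound in mESCs only, Peg3 and H13 joining Snrpn, Grb10 and Zdbf2. With regions shared only if summits lay within 200 bp, 24 were found in 2CLCs only. Fewer peaks remain at stricter limits by construction. Without the span of the Snrpn cluster, an alternative chosen after seeing the data, cluster densities were 54.7 and 30.1 peaks per Mb. Read totals after filtering were not analysed here, and this limits what can be compared across the lists.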

Other observations

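A wider list of 44 other imprinted genes was read in the same way. Promoter peaks were found at 38 of them in mESCs (86.4%, beside 70.0% of protein-coding genes) and at 26 in 2CLCs (59.1%, beside 61.9%). Of the 44, 12 were bound in mESCs only, beside 10.1% of protein-coding genes, 0 in 2CLCs only, and 6 in neither. The highest −log10 q values were those of Tssc4 (59.0 in mESCs and 24.3 in 2CLCs), Gab1 (54.0 and 20.0), Nap1l4 (44.0 and 23.6), Copg2 (30.3 and 20.2), Usp29 (29.4 and 30.2, from the peak it shares with Peg3) and Dio3 (29.1 and 11.6). Many of the 44 are imprinted only in placenta or brain, and expression was not measured here.

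The genes for 8 factors that maintain imprints were all bound at the promoter in both states. Trim28, the corepressor that ZFP57 recruits, had 51.2 in mESCs and 41.1 in 2CLCs, and Ctcf, the insulator protein of the H19-Igf2 cluster, had 41.8 and 36.3. Dppa3, which protects imprints in the early embryo, had 22.2 and 3.44 (percentiles 62.0 and 16.8), and Zfp57 had 15.4 and 4.70 (percentiles 49.2 and 25.5). Of the 8 genes, 7 have a CpG-rich promoter, a class in which 98.0% and 92.0% of protein-coding genes were bound.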
